A study of Mus musculus with 3 samples.

Results

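The 10 genes described here act at the cell surface or in the feedback loops of Wnt signalling, and they were followed through the cell types of the mouse cochlea at postnatal day 14 (P14) and 28 (P28). They were the secreted antagonists Notum, Wif1, Sfrp1, Frzb, Dkk2 and Dkk3, the feedback gene Axin2, and the R-spondin receptors Lgr4, Lgr5 and Lgr6. They were selected by symbol, with earlier results of these data known. They are 10 of the 32285 genes in the count matrices, and each of the 10 was detected in each library. Cochleae came from C57/B6 mice with no treatment and no engineered allele named, and each library pooled 14 cochleae of 7 mice, with 1 library at P14 and 2 at P28. Tissue was dissected mainly from the apical to the upper basal turns, so the lower basal turn was poorly sampled.

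Wnt proteins are lipid-modified ligands that bind Frizzled receptors together with the coreceptors Lrp5 or Lrp6, and the signal stabilises beta-catenin, which acts with TCF/LEF factors in the nucleus. The pathway is held in check by secreted proteins that inactivate or bind the ligand or block the coreceptor, and by target genes that shut the signal down inside the cell. R-spondins, through Lgr receptors, amplify it by keeping Frizzled receptors at the cell surface. In the neonatal cochlea, Lgr5 is known as a marker of supporting cells that respond to Wnt. The lining cells described here were tympanic border cells (TBCs), which lie beneath the basilar membrane, and the cells of Reissner's membrane (RM), the thin partition between the scala media and the scala vestibuli.

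Single-cell libraries were made with 10x Genomics 3′ chemistry, which counts transcripts by unique molecular identifiers (UMIs). The files held 10125255 UMIs at P14, and 35485894 and 37530956 in P28 replicates 1 and 2. Barcodes with 200 to 6000 genes and at most 15% mitochondrial UMIs numbered 1662, 5649 and 7065, with a median of 2477, 2422 and 2037 UMIs. The median mitochondrial share was 6.25% at P14 and 10.0% and 10.8% at P28. Libraries shared 10 to 54 barcode sequences in pairs, 4 to 10 of them among the barcodes kept. Clusters were named from marker genes, and "-like" marks a name that rests on them. A level is given as CPM, the UMIs of the gene per 1000000 UMIs of the class in that library. Its exact Poisson 95% interval, in brackets, covers counting error only. The interval of a count of 0 at P14 reached 35.1 CPM in RM-like and 16.1 CPM in TBC-like cells.

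The 2 lining classes were checked against their markers. TBC-like cells numbered 65, 947 and 1253 in the P14 library and in P28 replicates 1 and 2, and each of their clusters passed 5 of 8 markers, led by Emilin2 and Rarres1. The P14 TBC-like cluster also passed 6 of 7 fibrocyte markers, and its level of Coch, the gene of the fibrocyte matrix protein cochlin, was 12080.5 CPM against 3339 and 4091 CPM in the 2 P28 clusters. No separate fibrocyte-like cluster was found at P14. Results of tests on TBC-like cells are therefore given with and without the P14 library. RM-like cells numbered 40, 428 and 419, and each of their clusters passed 6 of 6 markers, including Vmo1, Slc26a7 and Otx2. Fewer than 10 inner phalangeal or border (IPhC/IB), spindle or root (SpC/RC) or Coch fibrocyte-like cells were found at P14, and those classes were compared at P28 alone.

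**Figure D1:**
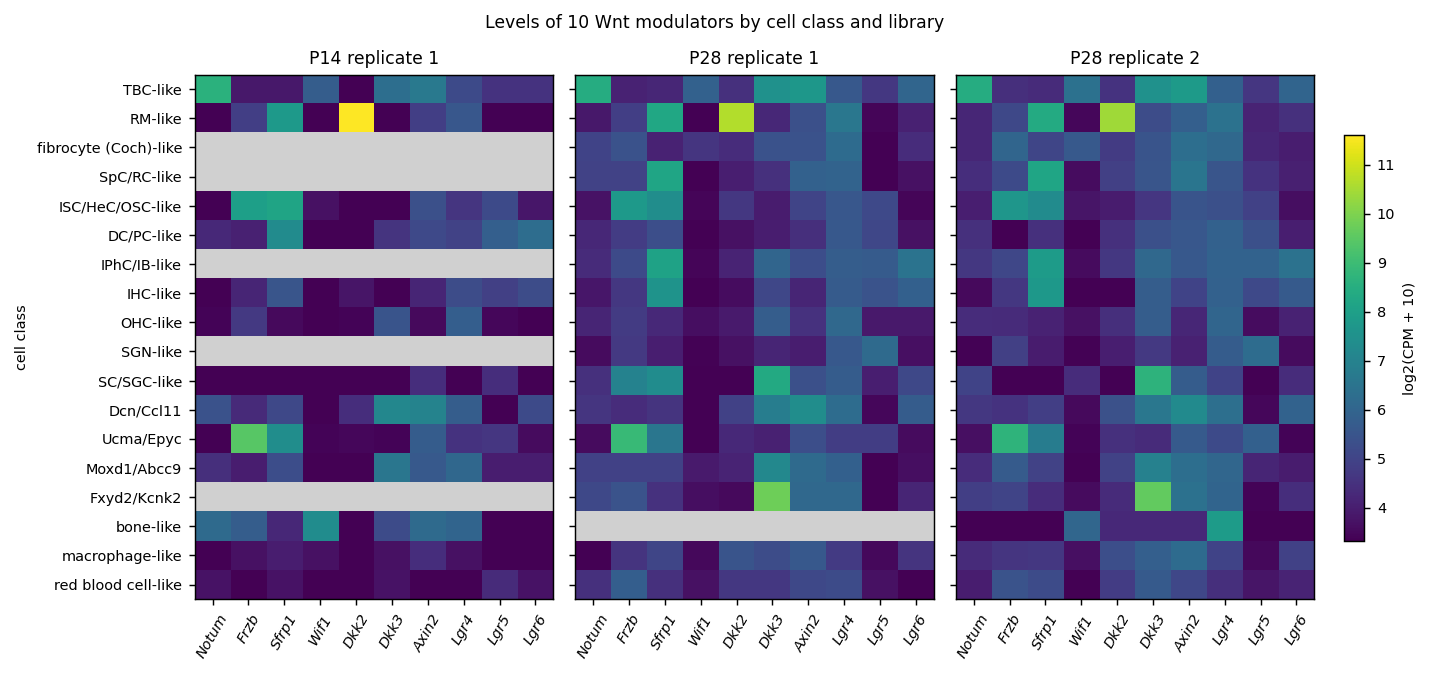
Levels of the 10 genes in CPM by cell class and library, on a log colour scale. Notum and Wif1 stand out in TBC-like cells, with Wif1 also high in bone-like cells, Dkk2 in RM-like cells, Frzb in Ucma/Epyc cells and Dkk3 in Fxyd2/Kcnk2 cells, while Sfrp1, Lgr4, Lgr5 and Lgr6 are spread over several classes.

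Notum and Wif1 were the members with the largest log2 fold changes in TBC-like cells. Notum, a secreted carboxylesterase that removes the lipid of Wnt proteins, was at 381 CPM [305 to 470] in the TBC-like cells of the P14 library. In the TBC-like cells of P28 replicates 1 and 2 it was at 342 CPM [325 to 360] and 338 CPM [322 to 355]. All other cells of the same libraries were at 4.998, 7.84 and 9.52 CPM. Notum was highest in TBC-like cells in each library, above 13, 18 and 20 other classes with no overlap of intervals. The next highest class was at 62.5 CPM in bone-like cells at P14, at 24.8 CPM in Fxyd2/Kcnk2 cells in P28 replicate 1 and, on 8 UMIs, at 59.7 CPM in B cell-like cells in P28 replicate 2. TBC-like cells held 70.7% of the Notum UMIs at P14 and 90.3% and 90.0% at P28, while they made up 3.91%, 16.8% and 17.7% of the cells.

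Across the 3 libraries, the log2 fold change of Notum in TBC-like cells against all other cells was 5.71 ± 0.25 (SE), with an adjusted p of 1.09e-07 from edgeR's quasi-likelihood test on sums per library. Without the P14 library the log2 fold change was 5.53. For shares of cells, those with fewer than 1000 UMIs were left out and the rest were thinned to 1000 UMIs. Of the TBC-like cells that remained, 34.6% at P14 and 25.8% in both P28 libraries had a Notum UMI. Over all TBC-like cells, unthinned, these shares were 52.3%, 52.7% and 49.4%. Macrophage-like cells, which gave a measure of free RNA, had Notum in 0 of 63 thinned cells at P14, 0 of 218 in P28 replicate 1 and 0.685% in the other P28 library. Exact binomial upper bounds of the shares at 0 were 5.69% and 1.68%. Their median depth was 3593, 2266 and 2081 UMIs, against 1964, 2013 and 2178 UMIs in TBC-like cells.

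The Notum locus on chromosome 11 (mm10, chr11:120653788-120661175, minus strand) overlaps the antisense gene Notumos (chr11:120659157-120661815, plus strand) over 2019 bases. Notumos was at 101, 124 and 110 CPM in TBC-like cells, and at 0, 4.37 and 1.09 CPM in RM-like cells. The strand setting of the counting is not given in the sources used here, so reads from the overlap may belong to either gene.

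Wif1, a secreted protein that binds Wnt ligands directly, was at 43.8 CPM [21.0 to 80.5], 49.96 CPM [43.5 to 57.1] and 75.5 CPM [67.9 to 83.8] in TBC-like cells of the 3 libraries. It was 5.14 ± 0.23 (log2, SE) higher there than in all other cells, with an edgeR adjusted p of 1.09e-07, and the log2 fold change was 5.33 without the P14 library. TBC-like cells held 90.8% and 87.9% of Wif1 UMIs at P28. At P14, bone-like cells were higher, at 152 CPM [88.5 to 243] from 17 UMIs, and held 53.1% of the 32 Wif1 UMIs of that library. In fibrocyte-like cells Wif1 was at 14.5 and 40.2 CPM, and their log2 difference from all other cells, 1.10 ± 0.55, had an adjusted p of 0.194. In P28 replicate 2 the intervals of TBC-like and bone-like cells overlapped.

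Dkk2, a Dickkopf protein that binds the coreceptors Lrp5 and Lrp6, marked RM-like cells. Its level there was 3031 CPM [2708 to 3383] at P14, and 1577 CPM [1505 to 1651] and 1357 CPM [1283 to 1434] in P28 replicates 1 and 2. All other cells were at 1.501, 10.1 and 15.3 CPM. RM-like cells held 96.7%, 88.4% and 78.5% of the Dkk2 UMIs and their intervals overlapped those of no other class. The log2 fold change against all other cells was 7.74 ± 0.45 (SE), with an edgeR adjusted p of 8.05e-24, and it was 6.85 without the P14 library. Of RM-like cells with at least 1000 UMIs, thinned to 1000, 88.9%, 70.2% and 67.6% had a Dkk2 UMI. The shares of macrophage-like cells treated alike were 0%, 2.29% and 1.71%. Unthinned shares of all RM-like cells were 87.5%, 79.2% and 77.6%, at median depths of 1382, 2361 and 1956 UMIs. Macrophage-like cells had 0 Dkk2 UMIs at P14 and 34.5 and 29.4 CPM at P28. In TBC-like cells Dkk2 was at 0, 12.03 and 12.98 CPM. It was lower there than in all other cells, which include the RM-like cells (log2 −2.64 ± 0.20, edgeR adjusted p 1.89e-06, and −2.61 without the P14 library). The kept cells outside both lining classes had 1.55, 9.67 and 15.95 CPM of Dkk2, on both sides of the TBC-like values. TBC-like cells ranked 6 of 19 and 12 of 21 classes at P28, and at P14 they were tied with several other classes at 0 UMIs.

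The secreted Frizzled-related proteins Sfrp1 and Frzb, which bind Wnt ligands through a domain like that of the receptor, were low in TBC-like cells and high in different epithelial classes. Sfrp1 was at 209 CPM [131 to 317] in RM-like cells at P14 and at 294 CPM [263 to 327] and 320 CPM [285 to 359] at P28. It was higher in RM-like cells than in all other cells by a log2 fold change of 2.14 ± 0.25, with an edgeR adjusted p of 5.03e-11. RM-like cells were not alone in this. At P28, SpC/RC-like cells had 284 CPM of Sfrp1 in both libraries and overlapped RM-like cells, and IPhC/IB-like cells had 259.9 and 221 CPM. Sulcus or Hensen cell-like (ISC/HeC/OSC) cells had the highest value at P14, 277 CPM [240 to 319], with 155 and 149 CPM at P28. In TBC-like cells Sfrp1 was at 4.38, 8.56 and 10.4 CPM (log2 −2.83 ± 0.20 against all other cells, edgeR adjusted p 1.06e-06, and −2.78 without the P14 library).

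Frzb was highest in cells of the Ucma/Epyc pool, epithelial clusters led by Ucma and Epyc that were named by these genes, and for which no test was run. There it was at 689 CPM [653 to 725], 472 CPM [443 to 503] and 410 CPM [379 to 443]. ISC/HeC/OSC-like cells came next in each library with no overlap on either side of them, at 245, 207 and 196 CPM. The lining classes were far lower, with 4.38, 7.17 and 11.49 CPM in TBC-like cells and 19.0, 19.2 and 24.96 CPM in RM-like cells. Frzb was lower than in all other cells in both, by log2 −2.99 ± 0.30 in TBC-like cells (edgeR adjusted p 1.25e-05, and −2.79 without the P14 library) and by log2 −1.89 ± 0.27 in RM-like cells (adjusted p 1.81e-08). All other cells include the Ucma/Epyc pool and the ISC/HeC/OSC-like cells. At P14 RM-like cells ranked 4 of 14 classes, on 2 UMIs. Their P28 mean of 22.1 CPM lay above that of outer hair cell-like cells (13.5 CPM) and below that of fibrocyte-like cells (43.6 CPM).

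Dkk3 is a divergent Dickkopf protein whose effect on Wnt signalling is less clear than that of Dkk2. At P28 it was highest in the Fxyd2/Kcnk2 pool, clusters led by these genes that were not given a cell type and were not tested, at 857 CPM [805 to 911] and 765 CPM [723 to 810]. Schwann or satellite glial cell-like cells had 318 and 396 CPM, and intermediate-like cells 524 CPM in P28 replicate 2. TBC-like cells had 70.0 CPM [40.0 to 114] at P14 and 173 CPM [161 to 186] and 174 CPM [162 to 186] at P28, 1.13 ± 0.20 (log2, SE) above all other cells with an edgeR adjusted p of 0.00071. The log2 fold change was 1.03 without the P14 library. The call was lost when the library was left out of the model as a term, with an adjusted p of 0.163. RM-like cells had 0, 8.74 and 28.2 CPM of Dkk3 (log2 −2.78 ± 0.28, edgeR adjusted p 1.78e-13). All other cells there include the Fxyd2/Kcnk2 pool and the TBC-like cells. The P28 mean of RM-like cells, 18.5 CPM, lay above that of ISC/HeC/OSC-like cells (10.1 CPM) and below that of outer hair cell-like cells (44.0 CPM).

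Axin2, the scaffold of the beta-catenin destruction complex that is itself switched on by Wnt signalling, was at 91.9 CPM [56.9 to 141] in TBC-like cells at P14, and at 198 CPM [185 to 211] and 220 CPM [207 to 234] at P28. The Dcn/Ccl11 pool, clusters led by these genes, had 120.4 CPM [94.6 to 151], 156 CPM [141 to 172] and 146 CPM [133 to 160]. This pool ranked first at P14, where its interval overlapped that of TBC-like cells. At P28 TBC-like cells ranked first and the pool second in both libraries, with no overlap. Against all other cells Axin2 was higher in TBC-like cells by 2.21 ± 0.22 (log2, SE; edgeR adjusted p 1.13e-05), and by 2.37 without the P14 library. TBC-like cells held 50.8% and 50.2% of the Axin2 UMIs at P28. At P14 they held 21 of 243, and the Dcn/Ccl11 pool held 74. In RM-like cells Axin2 was at 19.0, 30.6 and 46.7 CPM, lower than in all other cells by log2 −1.07 ± 0.22 (edgeR adjusted p 4.98e-05). All other cells include the TBC-like cells, and outside both lining classes Axin2 was at 31.0, 41.5 and 55.5 CPM.

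**Figure D2:**
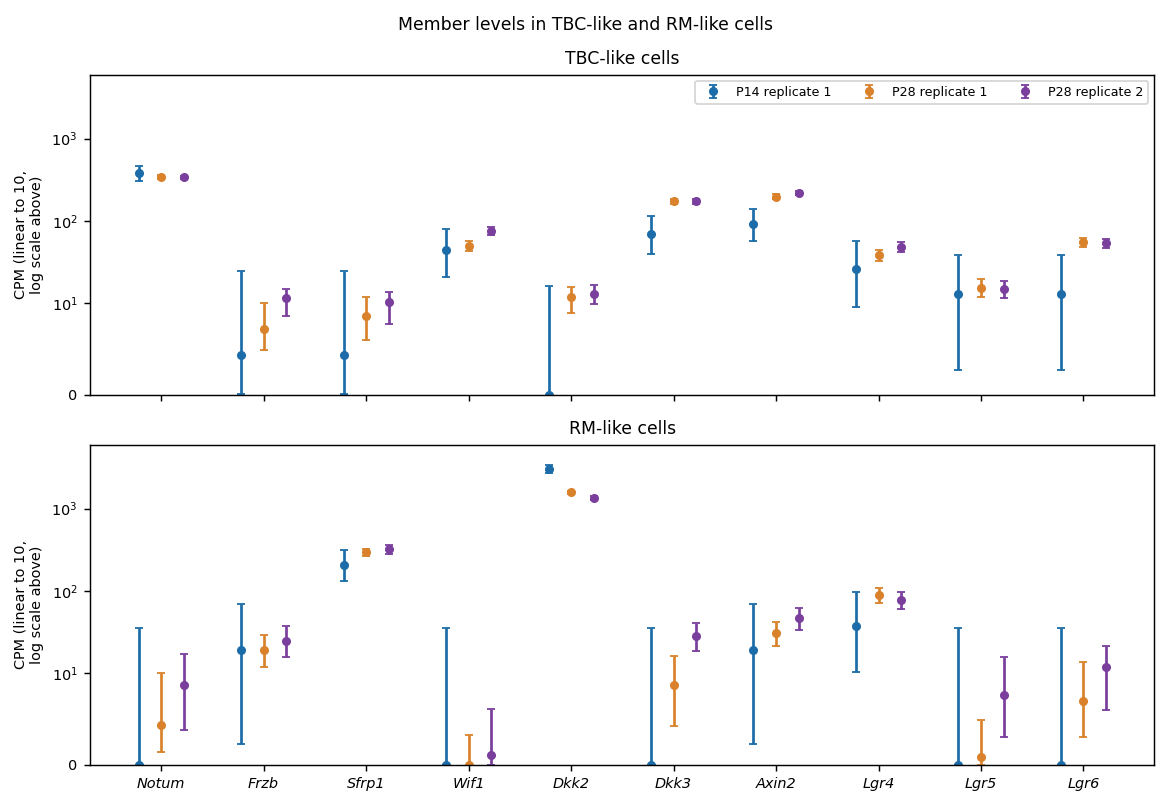
Levels of the 10 genes in CPM (axis linear near 0 and logarithmic above) in TBC-like and RM-like cells of each library, with exact Poisson 95% intervals. The points of Notum, Wif1, Dkk3 and Axin2 lie higher in TBC-like cells and those of Dkk2 and Sfrp1 in RM-like cells at both ages. At P14 the intervals of the classes overlap for Wif1 and Axin2.

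Lgr4, a receptor for R-spondins, was spread over many classes. Each class overlapped its neighbour in the order of Lgr4 levels, apart from the bone-like cells of P28 replicate 2. RM-like cells had 38.0, 88.2 and 77.1 CPM of Lgr4 (log2 0.83 ± 0.19 against all other cells, edgeR adjusted p 0.000266), but this call was lost without P28 replicate 1 (adjusted p 0.512) and without P28 replicate 2 (adjusted p 0.153). In P28 replicate 2, bone-like cells had 224 CPM [143 to 333] of Lgr4 from 24 UMIs. TBC-like cells had 26.3, 38.6 and 48.1 CPM, a log2 difference from all other cells of 0.10 ± 0.14 with an adjusted p of 0.573 (0.09 without the P14 library, adjusted p 0.476).

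Lgr5 was low in the lining cells. TBC-like cells had 13.1, 15.5 and 14.9 CPM (log2 −0.29 ± 0.16, edgeR adjusted p 0.153, and −0.32 without the P14 library, adjusted p 0.0742) and RM-like cells 0, 0.874 and 7.60 CPM (log2 −2.53 ± 0.45, adjusted p 3.1e-06), a call lost without P28 replicate 1 (adjusted p 0.104). Deiters' or pillar cell-like (DC/PC) cells had the highest Lgr5 level at P14, 46.5 CPM [28.4 to 71.8], and 23.6 and 31.0 CPM at P28. Among the named classes and pools, spiral ganglion neuron-like cells, which were not found at P14, were highest at P28 with 63.1 CPM [54.9 to 72.1] and 66.7 CPM [58.1 to 76.3]. The 19 and 23 cells of the P28 libraries left without a name had 92.7 and 63.4 CPM of Lgr5. IPhC/IB-like cells followed with 41.8 and 50.2 CPM, and their intervals overlapped those of the neurons in replicate 2 but not in replicate 1.

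Lgr6 was highest in IPhC/IB-like cells at P28, at 78.7 CPM [64.9 to 94.7] and 76.2 CPM [60.9 to 94.2], with no overlap with another class except the 13 granulocyte-like cells of replicate 1, which had 0 UMIs. TBC-like cells followed with 55.3 CPM [48.5 to 62.8] and 53.2 CPM [46.8 to 60.2], and overlapped inner hair cell-like cells, the Dcn/Ccl11 pool and Schwann or satellite glial cell-like cells in both, the last on 4 and 1 UMIs. Including 13.1 CPM at P14 from 3 UMIs, Lgr6 was higher in TBC-like cells than in all other cells by log2 1.82 ± 0.15 (edgeR adjusted p 3.32e-06), and by 1.86 without the P14 library. RM-like cells had 0, 6.99 and 11.9 CPM (log2 −1.48 ± 0.34, adjusted p 0.000245), and that call was lost without P28 replicate 1 (adjusted p 0.245).

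Counted together, 5 of the 10 members were higher in TBC-like cells than in all other cells, namely Notum, Wif1, Axin2, Lgr6 and Dkk3, and 3 were lower, namely Frzb, Sfrp1 and Dkk2. Over all 14433 genes tested in that comparison, 24.3% were called higher and 32.1% lower. The members were chosen with earlier results of these data known, so their counts beside these shares are a description and no test of the list. Without the P14 library the counts were again 5 higher and 3 lower. In RM-like cells 3 members were higher (Dkk2, Sfrp1 and Lgr4) and 7 lower, against 15.5% and 24.6% of all 13890 genes tested. All other cells here include the TBC-like cells, which held most Notum UMIs and, at P28, most Wif1 UMIs. Wif1 was at 0, 0 and 1.09 CPM in RM-like cells, beside 3.10, 1.15 and 2.71 CPM outside both lining classes. Notum was at 0, 4.37 and 8.68 CPM in RM-like cells, beside 5.07, 8.05 and 9.56 CPM outside both lining classes. Axin2 was at 19.0, 30.6 and 46.7 CPM, beside 31.0, 41.5 and 55.5 CPM. The values of Wif1, Notum and Axin2 were lower in each library, Notum at P14 on 0 UMIs and Wif1 on 0, 0 and 1 UMIs. The RM-like intervals covered the level outside the lining in each library for each of these genes, and no test was run on that comparison. The median log2 fold change of the members was 0.61 in TBC-like cells and −1.69 in RM-like cells, and that of all genes was −0.06 and −0.09. Without P28 replicate 1, 4 of the members were called lower in RM-like cells.

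**Figure D3:**
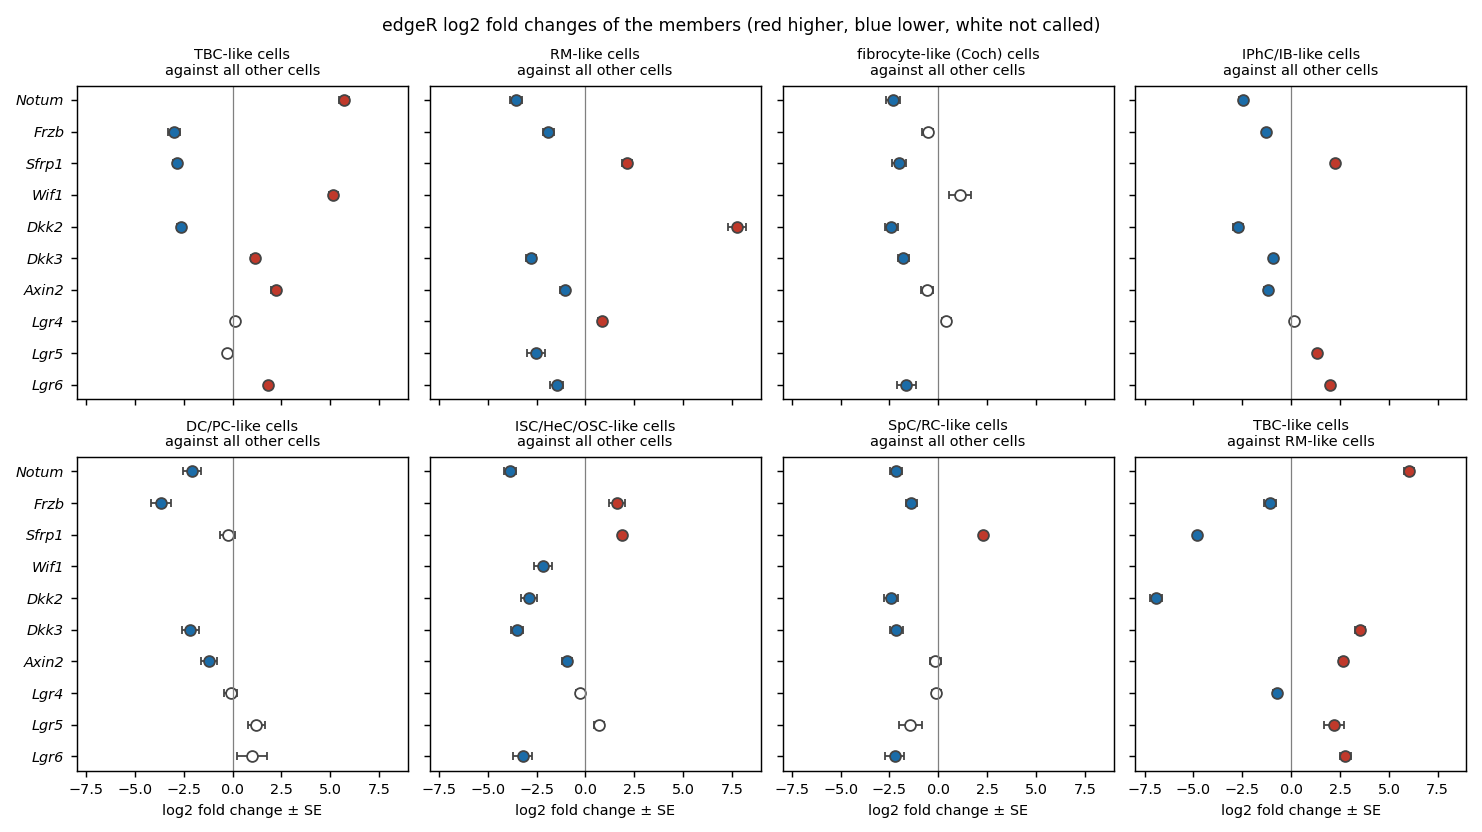
Log2 fold change of each member with its SE in each comparison, from edgeR on sums per library, with filled points for an adjusted p under 0.05. Notum and Wif1 reach 5.71 and 5.14 in TBC-like cells and Dkk2 7.74 in RM-like cells, and genes with 3 or fewer UMIs on either side are not drawn.

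When the lining classes were compared with each other directly, each of the 10 members passed the test. Notum was higher in TBC-like cells by 6.02 ± 0.27 (log2, SE), Dkk3 by 3.53 ± 0.24, Lgr6 by 2.76 ± 0.28, Axin2 by 2.64 ± 0.17 and Lgr5 by 2.20 ± 0.50, with edgeR adjusted p-values from 4.79e-15 to 0.000618. Wif1 was also higher (adjusted p 1.55e-11), but RM-like cells held 0, 0 and 1 of its UMIs, so no fold is given. Dkk2 was lower in TBC-like than in RM-like cells by log2 −6.90 ± 0.30, Sfrp1 by −4.82 ± 0.17, Frzb by −1.08 ± 0.30 and Lgr4 by −0.74 ± 0.17. Over all 10451 genes tested, 26.3% were called higher and 27.1% lower, so 6 higher and 4 lower of 10 stood beside a high background. Frzb and Lgr4 lost their calls without P28 replicate 1, with adjusted p-values of 0.100 and 0.418, and Frzb also without P28 replicate 2 (0.0627). Without the P14 library there were again 6 higher and 4 lower, with Notum at a log2 fold change of 5.93 and Dkk2 at −6.68.

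In 4 epithelial and supporting cell classes of the cochlear duct, Sfrp1 was higher than in all other cells in 3 and Notum and Dkk2 were lower in all 4. All other cells here include the TBC-like and RM-like cells that held most Notum and Dkk2 UMIs. Outside both lining classes, Notum was at 5.07, 8.05 and 9.56 CPM in the P14 library and P28 replicates 1 and 2, compared with 9.29, 8.85 and 12.4 CPM in DC/PC-like cells while ISC/HeC/OSC-like cells had 0, 3.11 and 6.18 CPM. At P28, Notum was at 10.5 and 15.2 CPM among IPhC/IB-like cells and at 21.3 and 10.996 CPM among SpC/RC-like cells. Beside the cells outside the lining, Notum lay higher in 3 of these classes and lower in ISC/HeC/OSC-like cells, and no test was run on that comparison. In DC/PC-like cells, on 4, 3 and 2 UMIs, and in IPhC/IB-like cells the Notum intervals covered the level outside the lining. Those of SpC/RC-like cells covered it in P28 replicate 2 [3.57 to 25.7] but not in replicate 1 [8.58 to 44.0]. The ISC/HeC/OSC-like interval lay below it only in P28 replicate 1 [1.25 to 6.42]. Dkk2 was at 7.66 and 15.2 CPM in IPhC/IB-like cells and 6.10 and 19.8 CPM in SpC/RC-like cells, beside 9.67 and 15.95 CPM outside the lining. ISC/HeC/OSC-like cells had 0 CPM at P14, beside 1.55 CPM outside the lining. At P28 their Dkk2 interval lay above that level in replicate 1 [10.5 to 21.1] and below it in replicate 2 [2.54 to 10.6]. DC/PC-like cells held 0, 1 and 2 Dkk2 UMIs, and their intervals covered the level outside the lining in each library. TBC-like cells also held most Wif1 UMIs at P28, and Wif1 was called lower in DC/PC-like, IPhC/IB-like and ISC/HeC/OSC-like cells. DC/PC-like cells held 0 Wif1 UMIs and IPhC/IB-like cells 3. ISC/HeC/OSC-like cells had 2.80, 0.890 and 3.71 CPM of Wif1, beside 3.10, 1.15 and 2.71 CPM outside the lining. No test was run on these comparisons. IPhC/IB-like cells had 3 members higher, Sfrp1 (log2 2.26 ± 0.13), Lgr6 (1.96 ± 0.15) and Lgr5 (1.34 ± 0.16), with edgeR adjusted p-values of 1.94e-06, 7.2e-06 and 0.000154. A further 6 were lower, against 17.0% of all genes higher and 24.2% lower. ISC/HeC/OSC-like cells had Sfrp1 (1.87 ± 0.16, adjusted p 0.000218) and Frzb (1.63 ± 0.40, adjusted p 0.0173) higher and 6 members lower, against 14.3% and 22.2% of all genes. The Frzb call was lost with the library left out as a term (adjusted p 0.218). Wif1 and Axin2, both called lower there, each lost the call without P28 replicate 1 (adjusted p 0.121 and 0.190) and without P28 replicate 2 (adjusted p 0.0721 and 0.106).

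SpC/RC-like cells had Sfrp1 higher (2.26 ± 0.16, edgeR adjusted p 2.09e-05) and 5 members lower, beside 9.34% of all genes higher and 13.5% lower. The direction turned for Frzb at clustering resolution 2 (log2 1.60) and for Frzb and Dkk2 when the libraries were clustered without integration (0.16 and 2.37). In DC/PC-like cells edgeR called 0 members higher and 6 lower, beside 7.12% and 13.0% of all genes. At an unadjusted p under 0.05, 1 member was higher there, Lgr5 (log2 1.21 ± 0.44, adjusted p 0.0589), and DESeq2 called 0 higher and 4 lower. That class held 73, 75 and 42 cells, and without P28 replicate 1 it gave 2 members higher and 2 lower. Coch fibrocyte-like cells had 0 members higher and 6 lower in edgeR, beside 8.07% and 12.7% of all genes, with 0 higher at an unadjusted p under 0.05 and 0 higher and 4 lower in DESeq2. All other cells again include the lining classes. Notum was at 21.7 and 8.61 CPM in fibrocyte-like cells, beside 8.05 and 9.56 CPM outside the lining. Dkk2 was at 10.9 and 17.2 CPM, beside 9.67 and 15.95 CPM. Sfrp1, Dkk3, Lgr5 and Lgr6, the rest of those called lower, lay below the level outside the lining in both libraries. No test was run on that comparison. Lgr5 and Lgr6 rested on 3 and 5 UMIs in fibrocyte-like cells over both libraries. Against all other cells, DESeq2 did not call Lgr5 or Lgr6 lower (adjusted p 0.0666 and 0.0817).

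RM-like cells at P28 fell into 2 clusters that differed in these genes. Clusters were formed without the members and without the other Wnt pathway genes, and the values below are a description with no test. The larger cluster, with 608 cells, had 1793 and 1551 CPM of Dkk2 in P28 replicates 1 and 2. The smaller, with 239 cells, had 1013 and 955 CPM. Sfrp1 went the other way, at 162 and 171 CPM in the larger cluster and 636 and 629 CPM in the smaller. Lgr4 was at 115 and 93.4 CPM in the larger and 18.9 and 43.2 CPM in the smaller. The pattern was the same in both libraries, with no overlap of intervals for Dkk2 or Sfrp1. Vmo1, a defining marker of RM cells, was at 9438 CPM in the larger cluster and 2776 CPM in the smaller. The smaller cluster also passed 3 of 5 SpC/RC markers, and Slc26a4, the gene of the anion exchanger pendrin and a SpC/RC marker, was at 344 CPM against 123 CPM. The part of SpC/RC-like cells in the Sfrp1 level of the smaller cluster was not tested.

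**Figure D4:**
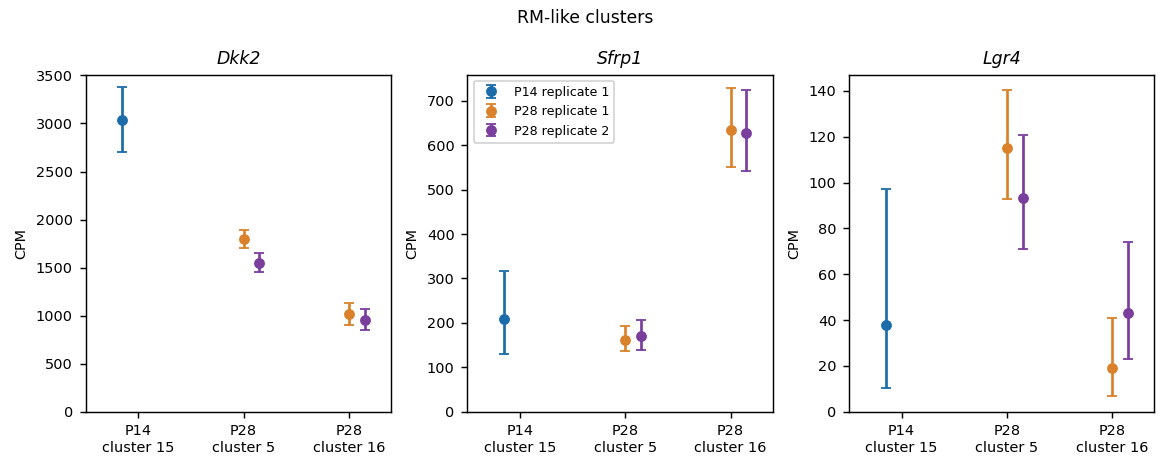
Levels of Dkk2, Sfrp1 and Lgr4 in CPM, with exact Poisson 95% intervals, in RM-like clusters, from left the P14 cluster, the larger P28 cluster and the smaller P28 cluster, with the replicates as separate points. In both P28 libraries Dkk2 is higher in the larger cluster and Sfrp1 in the smaller, and the P14 cluster had 3031 CPM of Dkk2 and 209 CPM of Sfrp1.

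TBC-like cells at P28 also formed 2 clusters, which differed in depth. One had 1448 cells and a median of 1492 UMIs, the other 752 cells and a median of 6676 UMIs. Notum was at 319 and 285 CPM in the shallower cluster and at 348 and 365 CPM in the deeper. Axin2 was at 155 and 193 CPM in the shallower cluster and at 209.7 and 234 CPM in the deeper. Wif1 was at 43.3 and 57.9 CPM in the shallower and at 51.8 and 84.4 CPM in the deeper. In each library the values of all 3 were lower in the shallower cluster. They are given here without intervals and were not tested between clusters, and the part of depth in this was not tested.

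The members were set beside 83 other genes of the pathway, grouped by role. In TBC-like cells 67 of these could be tested, and 37 were higher than in all other cells and 18 lower, with a median log2 fold change of 0.62 against −0.06 for all genes. Of all genes tested, 24.3% were higher and 32.1% lower. This list too was chosen with earlier results of these data known, so its counts are a description. Without the P14 library, 40 pathway genes were higher and 22 lower of 69 tested, against 29.2% and 35.8% of all genes. By role, 11 of 16 tested receptors and coreceptors were higher and 4 lower, 8 of 10 nuclear factors were higher and 1 lower, and 5 of 7 other antagonists were higher and 2 lower. Of the Wnt ligands, 2 of 9 were higher and 5 lower.

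The pathway genes with the largest rises in TBC-like cells were Bambi, Nkd1, Fzd10 and Apcdd1. Bambi, a membrane pseudoreceptor of TGF-beta signalling, was at 214, 201 and 161 CPM in TBC-like cells (log2 3.70, edgeR adjusted p 1.37e-07). Nkd1, a feedback inhibitor that binds Dishevelled, was at 293, 332 and 365 CPM (log2 3.48, adjusted p 6.2e-07). Fzd10, a Frizzled receptor, was at 136, 170.2 and 152 CPM (log2 3.36, adjusted p 1.69e-07). Apcdd1, a membrane-bound Wnt inhibitor, was at 455, 169.8 and 156 CPM (log2 3.25, adjusted p 2.4e-06). The largest falls were those of the ligands Wnt7a (log2 −3.69), Wnt7b (−3.21) and Wnt4 (−2.94) and of the R-spondin Rspo2 (−3.44), with edgeR adjusted p-values from 1.41e-06 to 9.87e-05. Each of these 4 had at most 15 UMIs in TBC-like cells of any library. Without the P14 library all 8 of these genes kept their direction and call.

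In RM-like cells 16 of the 67 tested pathway genes were higher and 26 lower, with a median log2 fold change of −0.24 against −0.09 for all genes, of which 15.5% were higher and 24.6% lower. Sfrp5, another secreted Frizzled-related protein, was at 199.6, 19.2 and 22.8 CPM in the P14 library and P28 replicates 1 and 2, with 21 or 22 UMIs in each library (log2 5.62, edgeR adjusted p 4.29e-18). Sostdc1, a secreted antagonist of BMP and Wnt ligands, was at 124, 66.4 and 58.6 CPM (log2 3.45, adjusted p 9.36e-18). The nuclear corepressor Tle4 was at 950.2, 469 and 558 CPM (log2 2.88, adjusted p 4.99e-15). The ligand Wnt4 was at 389.6, 114 and 107 CPM (log2 2.78, adjusted p 4.49e-18). Each of these 4 had its highest level in the P14 library, as Dkk2 did. The largest falls were those of Sp5, a Wnt target with 0 UMIs in RM-like cells of each library, and of Fzd4 (log2 −2.74), Bambi (−2.71) and Wnt7a (−2.65).

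Between the lining classes, 28 of 56 tested pathway genes were higher in TBC-like cells and 12 were higher in RM-like cells, against 26.3% and 27.1% of all genes. Without the P14 library the counts were 30 and 14 of 62. Bambi (log2 4.83), Nkd1 (4.40) and Fzd10 (4.17) led in TBC-like cells, together with Sp5, which had 2, 177 and 136 UMIs in TBC-like cells. Sfrp5 (log2 −5.86), Wnt4 (−5.38), Sostdc1 (−4.82) and the cyclin gene Ccnd1 (−4.37) led in RM-like cells.

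In the other classes the pathway genes were counted in the same way, and the shares of all genes called there are those given above for the members. Of the tested genes, 14 were higher and 26 lower of 69 in IPhC/IB-like cells, 13 and 21 of 67 in ISC/HeC/OSC-like cells, 6 and 16 of 64 in DC/PC-like cells, 6 and 15 of 69 in SpC/RC-like cells, and 11 and 8 of 69 in fibrocyte-like cells. Wnt ligands that were low in the lining cells led some of these lists. Wnt7a was higher in DC/PC-like cells by log2 3.68 (edgeR adjusted p 1.82e-06) and in ISC/HeC/OSC-like cells by 3.17 (adjusted p 0.000132). Wnt7b was higher in IPhC/IB-like cells by 2.89 (adjusted p 5.64e-07) and in SpC/RC-like cells by 2.62 (adjusted p 1.6e-05). Rspo2, a secreted R-spondin, was at 116 and 94.6 CPM in SpC/RC-like cells (log2 4.65). Fibrocyte-like cells were led by Sfrp4 (log2 4.26), Rspo3 (4.16), the receptor gene Fzd9 (3.80) and the corepressor gene Tle1 (2.59).

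The level of each member over classes was also compared with that of 10635 other genes by Pearson's r over 42 sums of 17 classes, as a description only. Sums from the same library share its depth and free RNA. For Notum the nearest genes were Npy, which encodes neuropeptide Y (r = 0.914), and Plpp4 (0.870). For Dkk2 they were Slc26a7, an anion transporter gene used here as a RM marker (0.985), and Cndp1 (0.964). For Wif1 they were Ndnf (0.849) and Bambi (0.840). Sfrp1 was nearest to Grhl2 (0.911), an epithelial transcription factor gene, and Il17re (0.894). Lgr6 was nearest to Slc1a3 (0.851), a marker used for IPhC/IB cells, and Klf5 (0.754), and Lgr5 to Camta1 (0.839) and Lypd6b (0.822). Weaker likeness was found for Dkk3 with Adamtsl5 (0.825) and Col23a1 (0.751), Frzb with Castor1 (0.788) and Crabp2 (0.772), and Lgr4 with Slc39a13 (0.778) and Il6st (0.765). The Ucma/Epyc and Fxyd2/Kcnk2 pools, where Frzb and Dkk3 were highest, were not among the 17 classes.

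P14 and P28 were compared without a test, because P14 was 1 library. P14 was taken to lie apart only where its interval overlapped neither P28 interval. Of 130 pairs of member and class, 6 were higher at P14, 13 were lower and 111 overlapped. With the study's barcode limits 7 were higher and 4 lower, and without mitochondrial, ribosomal protein and haemoglobin genes in the totals 5 were higher and 19 lower. The same rule was not applied to all genes, so no background share stands beside these counts. In RM-like cells Dkk2 was higher at P14, 3031 CPM against a P28 mean of 1467 ± 156 CPM (SD, n = 2). In the Ucma/Epyc pool Frzb was higher at P14, at 689 against 441 ± 43.9 CPM, and so was Sfrp1, at 157 against 93.7 ± 11.7 CPM. Sfrp1 was higher at P14 also in ISC/HeC/OSC-like cells, at 277 against 152 ± 4.13 CPM. Sfrp1 and Lgr6 were both higher at P14 in DC/PC-like cells, at 149 against 21.0 ± 12.1 CPM and 67.4 against 4.57 ± 2.30 CPM. No IPhC/IB-like cells were found at P14, while 290 and 344 were found at P28 and had the Sfrp1 and Lgr6 levels given above, and the part of this in the DC/PC-like differences was not tested.

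In the P14 cluster named TBC-like, which also passed 6 of 7 fibrocyte markers, 3 members lay lower than in the P28 TBC-like cells. Dkk3 was at 70.0 CPM at P14 against 174 ± 0.423 CPM at P28 (SD, n = 2), Axin2 at 91.9 against 209 ± 15.7 CPM, and Lgr6 at 13.1 against 54.2 ± 1.47 CPM. The level of Coch in the P14 TBC-like cluster, given above, differed in the same comparison, and its part in these differences was not tested. Notum did not lie apart, at 381 CPM against 340.1 ± 2.504 CPM. In inner hair cell-like cells Sfrp1 was at 35.7 CPM at P14 and 192 ± 18.1 CPM at P28. IPhC/IB-like cells, found at P28 alone, had 259.9 and 221 CPM of Sfrp1. No doublets were removed, and the part of IPhC/IB-like cells in this difference was not tested. In Schwann or satellite glial cell-like cells Dkk3 had 0 UMIs at P14 and 318 and 396 CPM at P28, and the P14 cluster was led by the oligodendrocyte genes Mobp and Mog. The other 8 pairs lower at P14 had P28 means of at most 39.6 CPM. Among them were Dkk2 and Dkk3 in macrophage-like cells, used above as a measure of free RNA. These were at 0 and 2.86 CPM at P14, with P28 means of 31.9 and 37.4 CPM. Another was Frzb in red blood cell-like cells, at 0 CPM at P14 and a P28 mean of 39.6 CPM. The part of free RNA in the differences between ages was not tested.

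**Figure D5:**
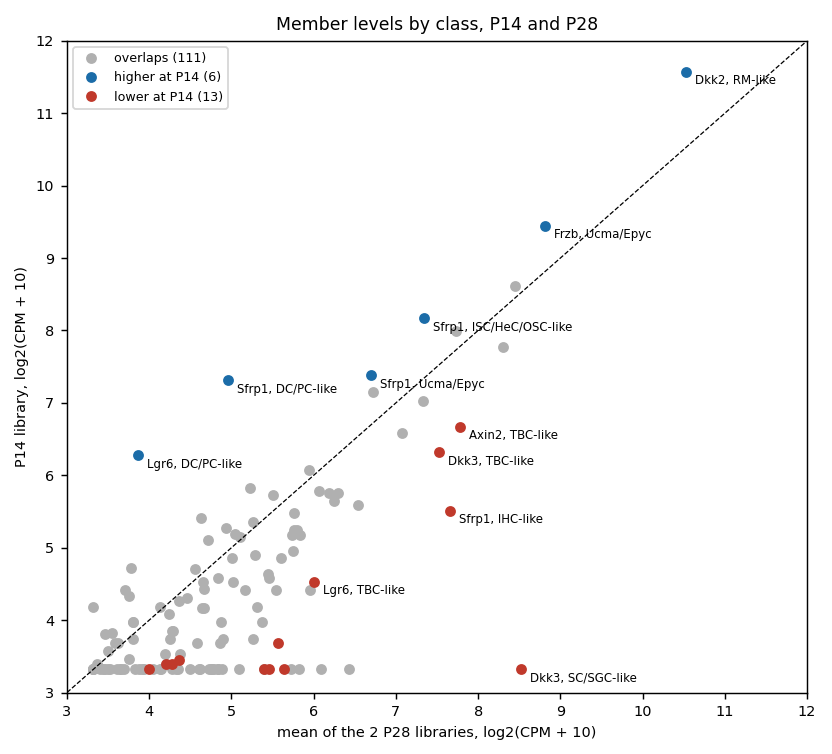
Level of each member in each class as log2(CPM + 10), in the P14 library (vertical axis) against the mean of the P28 libraries (horizontal axis), with a dashed line of equality and no error bars drawn. Most of the 130 points are grey, for overlapping intervals, with 6 blue points higher and 13 red points lower at P14.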

How the data were processed

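Single-cell RNA-seq was measured in 3 libraries of mouse cochlea, 1 at P14 and 2 at P28, with groups taken from the labels. The UMI counts per gene and barcode were deposited by the authors as filtered matrices. Cell Ranger 6.0.1 and mm10 are named in the submitters' processing notes, while the file headers name Cell Ranger 5.0.1, and reads of the same molecule were collapsed by UMI. The strand setting is not given in the sources used here.

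Barcodes with 200 to 6000 genes and at most 15% mitochondrial UMIs were kept, 14376 in all. The study's limits (3000 genes and 15000 UMIs) would leave 1401, 4827 and 6391. P14 was clustered alone (18 clusters) and the P28 libraries after anchor integration (32 clusters) with Seurat 5.3.0 in R 4.3.3 (2000 variable genes without the members and 83 other Wnt pathway genes, 30 components, resolution 1). Clusters were named from marker lists of 23 types (at least 3 markers and 50% of the list). The share thresholds and the names of the pools led by gene pairs were set after the clusters were seen. No doublets were removed.

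UMIs were summed per class and library and tested with edgeR 4.0.16 (quasi-likelihood, TMM, filterByExpr, Benjamini-Hochberg over all genes, threshold 0.05). All 10 members passed the filter in each comparison. The library was a term with 3 libraries, and no term was used for the classes compared at P28 alone. Where 1 of 3 libraries was left out, the library stayed a term with the 2 that remained. Each library gave both sums that were compared. With 3 libraries, deviations of the sums from the mean of each side over both ages correlated in each library (0.147 to 0.603). The P28 replicates are separate pools of mice. With 3 libraries, p-values measure how the difference between the sums varied over libraries of both ages, so age and replicate spread are mixed. For the classes compared at P28 alone, they measure the spread between the P28 pools. With 1 of 3 libraries left out, they measure how the difference varied over the 2 libraries that remained. In each case edgeR shares information on the spread across genes. In simulated counts for the TBC-like comparison, 200 of 200 genes changed 4-fold were recovered with 8 false calls among 14433 genes. These counts had the same dispersion for all genes and no difference between libraries except depth. Only genes above a set mean level were changed, so the simulation does not cover members with low levels. Levels were computed with Python 3.11.15, scipy 1.17.1 and pandas 2.3.3, and shares of cells after thinning to 1000 UMIs. Cells below the depth of thinning were left out of the thinned shares. Positions are from GENCODE M21, which holds 32158 of the 32285 feature identifiers.

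Each member is named. Other pathway genes are named per comparison by size of log2 fold change, up to 4 higher and 4 lower, among genes called with at least 30 UMIs and moving alike in each library; a few more are mentioned where they fall in several comparisons. Members and lists were chosen with earlier results of these data known. Alternatives tried were DESeq2 1.42.0, no TMM, other filters on low counts, other limits on barcodes, leaving out 5% of barcodes by Scrublet score (scanpy 1.11.5), other clusterings, the library term and leaving out each library. The genes nearest to Axin2 in level are not reported here.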

Additional observations from a re-analysis of the deposited data

Results flagged for a closer look

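In 5 pairs of gene and class the class lay on opposite sides of all other cells at P14 and in both P28 libraries, and these differences were not tested, since P14 was 1 library. Sfrp1 in DC/PC-like cells was at 149 CPM at P14, above the 83.0 CPM of all other cells, and at 29.5 and 12.4 CPM at P28, below 69.6 and 60.5 CPM. IPhC/IB-like cells, with 259.9 and 221 CPM of Sfrp1 at P28, numbered 0 at P14 and 290 and 344 at P28, and their part was not tested. Notum in the Dcn/Ccl11 pool was at 32.5 CPM at P14, above 15.1 CPM, and at 14.4 and 15.2 CPM at P28, below 72.8 and 84.9 CPM. Outside both lining classes Notum was at 5.07, 8.05 and 9.56 CPM, below the pool in each library. Sfrp1 in inner hair cell-like cells was at 35.7 CPM at P14, below 88.6 CPM, and at 179.5 and 205 CPM at P28, above 64.5 and 56.4 CPM. The part of IPhC/IB-like cells in this difference was not tested. Dkk3 in outer hair cell-like cells was at 34.6 CPM at P14, above 22.3 CPM, and at 43.9 and 44.2 CPM at P28, below 107 and 133 CPM. Axin2 in the Ucma/Epyc pool was at 43.0 CPM at P14, above 28.7 CPM, and at 29.9 and 40.9 CPM at P28, below 71.9 and 91.8 CPM. Apart from Notum, the pairs described here also lay on opposite sides of the level outside both lining classes. By the interval rule for ages, P14 did not lie apart for Notum in the Dcn/Ccl11 pool. Nor did it for Dkk3 in outer hair cell-like cells or Axin2 in the Ucma/Epyc pool. The other cells differed in makeup between the ages, with TBC-like cells at 3.91% of cells at P14 and 16.8% and 17.7% at P28, and with 0, 234 and 363 cells of the Fxyd2/Kcnk2 pool, and the part of this in the differences was not tested.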

How the results depend on the processing

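The 63 called member results gave 733 combinations of result and setting. Of the 691 with a test, 637 kept the direction and the call, 51 kept the direction and lost the call, and 3 reversed. The other 42 left 1 library per side, so they gave a value with no test, in the same direction. The reversals were in SpC/RC-like cells, where the log2 fold change of Frzb was 1.60 at resolution 2 and 0.16 without integration, and that of Dkk2 was 2.37 without integration. The cause was not tested.

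Requiring 10 UMIs in every sum removed low members from the test and left the number called lower at 0 in TBC-like, RM-like, fibrocyte-like and SpC/RC-like cells and at 1 in ISC/HeC/OSC-like cells. That filter left no member to test in some comparisons. Without the replicate block (the library term), 4 members were lower in RM-like cells, 2 were lower in DC/PC-like cells and 1 was higher in ISC/HeC/OSC-like cells. With the block added to the 2-library comparisons, no count of members moved by over 1.5 times. Leaving out 1 library gave 4 to 7 lower in RM-like cells, 0 to 2 higher and 2 to 8 lower in DC/PC-like cells, and 2 to 4 lower in TBC-like than RM-like cells, each with the lowest count of lower members without P28 replicate 1. DC/PC-like cells had 1 member higher without integration and were not found at P28 at resolution 2. SpC/RC-like cells had 2 higher without integration and 3 at resolution 2. DESeq2 called 2 members lower in TBC-like than RM-like cells. With 1 of 2 libraries left out no test was possible for the classes found at P28 alone.

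Over all genes, 8131 were called in TBC-like cells, 5567 in RM-like, 3114 in fibrocyte-like, 6232 in IPhC/IB-like, 2766 in DC/PC-like, 5119 in ISC/HeC/OSC-like and 3427 in SpC/RC-like cells, and 5589 between TBC-like and RM-like cells. Requiring 10 UMIs in every sum, which tests fewer genes, gave 1835, 890, 1607, 3682, 631, 2184, 1741 and 1047 in that order. DESeq2 gave 5248 in TBC-like, 3143 in RM-like and 1767 in DC/PC-like cells and 3444 between TBC-like and RM-like cells. Without the block the counts were 4274 in TBC-like, 2496 in RM-like, 1245 in DC/PC-like and 2652 in ISC/HeC/OSC-like cells. Leaving out P28 replicate 1 or 2 gave 3203 and 3719 in TBC-like cells, 2027 and 2848 in RM-like, 1602 and 1749 in DC/PC-like and 2357 and 2956 in ISC/HeC/OSC-like cells, and 2568 and 2882 between TBC-like and RM-like cells, while leaving out P14 gave 8064 in ISC/HeC/OSC-like cells. The study's limits on barcodes gave 1941 in fibrocyte-like cells. With those limits, 4 pairs were lower at P14, and without mitochondrial, ribosomal protein and haemoglobin genes, 19. The share of TBC-like cells of P28 replicate 1 with a Notum UMI was 13.8% at 500 UMIs and 52.7% without thinning, and that of RM-like cells with a Dkk2 UMI was 46.7% and 79.2%. At P14, 40 RM-like and 65 TBC-like cells limit the precision of each level.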
